A study of Mus musculus with 12 samples.

Results

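Macrophage and microglial polarization markers were examined in RNA from mouse brain after stroke. The set described here holds 9 genes, Aif1, Cd68, Cd86, Cd80, Nos2, Mrc1, Cd163, Chil3 and Msr1, and its members were taken as the rows of the count table that carry these symbols, out of 39756 genes in all. All 9 were found, and all 9 passed the filter on low counts that left 17558 genes for testing. The proteins of Aif1 (Iba1), Cd86, Nos2 (iNOS) and Mrc1 (CD206) were the targets of staining in the study, while only messenger RNA was measured here.

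The mice were male C57BL/6J animals of 9 to 10 weeks, 4 in each of 3 groups, all labelled as a single batch. Sham mice had sham surgery, Vehicle mice had transient middle cerebral artery occlusion (tMCAO, a filament that blocks the artery for 45 min and is then withdrawn) with saline, and LJP mice had the same occlusion with Laminaria japonica polysaccharide (LJP), a sulfated polysaccharide of a brown seaweed. By the study's methods, saline or LJP was given into the stomach daily for 14 days before surgery and continued afterwards, and Sham mice received saline too. The study's methods name ischemic hemispheres as the source of the poly(A) RNA. For Sham mice, which had no occlusion, the hemisphere taken is not stated. The labels state neither the dose nor the time after surgery. The study tried 3 doses and took the middle one into its later experiments, without naming it for the sequenced mice. A hemisphere mixes all its cells, so a change in the number of cells of a type and a change in RNA per cell cannot be told apart in any value that follows.

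Microglia are the resident macrophages of the brain, border-associated macrophages live in the meninges and around vessels, and monocytes can enter after injury. Macrophages exposed to interferon gamma or bacterial products take on a classical, pro-inflammatory state marked by co-stimulatory molecules and inducible nitric oxide synthase, and those exposed to interleukin 4 or interleukin 13 take on an alternative state marked by scavenger and mannose receptors. The scheme was drawn up from cultured cells, and cells in tissue often carry markers of both states. Aif1 and Cd68 are used to mark myeloid cells of either state, which does not mean that their level is the same in both.

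Levels are given as CPM, the count scaled to the library size after TMM normalization and expressed as counts per 1000000, with ± for the SD over 4 mice. Total counts per mouse were 17960353 to 22216315, so that 3 counts, the limit that a count of 0 allows, equal 0.129 to 0.173 CPM. Log2 fold changes, their standard errors (SE) and adjusted p-values are from edgeR's quasi-likelihood test fitted on all 12 mice, with Benjamini-Hochberg adjustment over 17558 genes and a threshold of 0.05. On the first principal component of all tested genes (60.3% of the variance), Vehicle mice 1 and 2 stood apart at 69.6 and 113, against 13.7 and 27.5 for Vehicle mice 3 and 4, -15.2 to 20.7 for LJP and -56.7 to -51.7 for Sham. Counts of members called are therefore also given without these mice.

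The promoters of 6 members, Aif1, Cd68, Cd80, Mrc1, Cd163 and Chil3, were found in RefSeq's promoter table (GRCm38.p6), and Nos2, Cd86 and Msr1 were not matched. The 250 bases before the start site are shown 5′ to 3′ for Cd68, Chil3 and Mrc1, which stand for the pan-myeloid and the alternative markers, because for these 3 the window ends exactly where the gene of the count table begins. Capitals mark the searched motifs. They are GAGGAA on either strand in Cd68 (chr11:69666171-69666420, minus strand) and Mrc1 (chr2:14229164-14229413, plus strand), and TTCNNNGAA in Chil3 (chr3:106167565-106167814, minus strand).
Cd68: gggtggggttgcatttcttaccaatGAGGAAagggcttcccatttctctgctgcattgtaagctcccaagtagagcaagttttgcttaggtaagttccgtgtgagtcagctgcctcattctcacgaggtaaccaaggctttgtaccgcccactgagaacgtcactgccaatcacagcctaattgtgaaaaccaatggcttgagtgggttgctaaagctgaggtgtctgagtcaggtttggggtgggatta
Chil3: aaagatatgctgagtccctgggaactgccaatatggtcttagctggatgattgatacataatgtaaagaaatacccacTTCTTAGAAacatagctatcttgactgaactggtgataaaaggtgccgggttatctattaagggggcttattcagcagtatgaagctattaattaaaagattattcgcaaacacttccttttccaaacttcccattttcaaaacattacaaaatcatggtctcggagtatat
Mrc1: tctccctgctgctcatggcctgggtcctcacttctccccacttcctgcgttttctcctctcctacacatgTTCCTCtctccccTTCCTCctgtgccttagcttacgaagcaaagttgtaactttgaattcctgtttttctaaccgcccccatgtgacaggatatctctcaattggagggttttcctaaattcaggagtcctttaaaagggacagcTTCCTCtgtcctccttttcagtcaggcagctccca
GAGGAA, the core bound by the myeloid factor PU.1, occurred on either strand in 23.3% of the 32851 promoters of this length, and was found once in Cd68, 3 times in Mrc1 and once in Aif1. TTCNNNGAA, the interferon gamma activated site that STAT proteins bind and that reads the same on both strands, occurred in 7.02% of promoters and in Chil3, from 172 to 164 bases before its start. The STAT6 site, a like motif with the spacing that this factor prefers downstream of interleukin 4, occurred in 5.85% of promoters and in none of the 6. The NF-kappa B consensus occurred in 7.25% of promoters and in none of the 6. No match in the members overlapped another motif. The windows of Aif1 and Cd163 run 31 and 15 bases into the gene as the count table places it, with the match in Aif1 inside those bases, and that of Cd80 lies within it, so they are not printed. A match is a description of letters, and no match says only that the letters are not in this window.

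**Figure D1:**
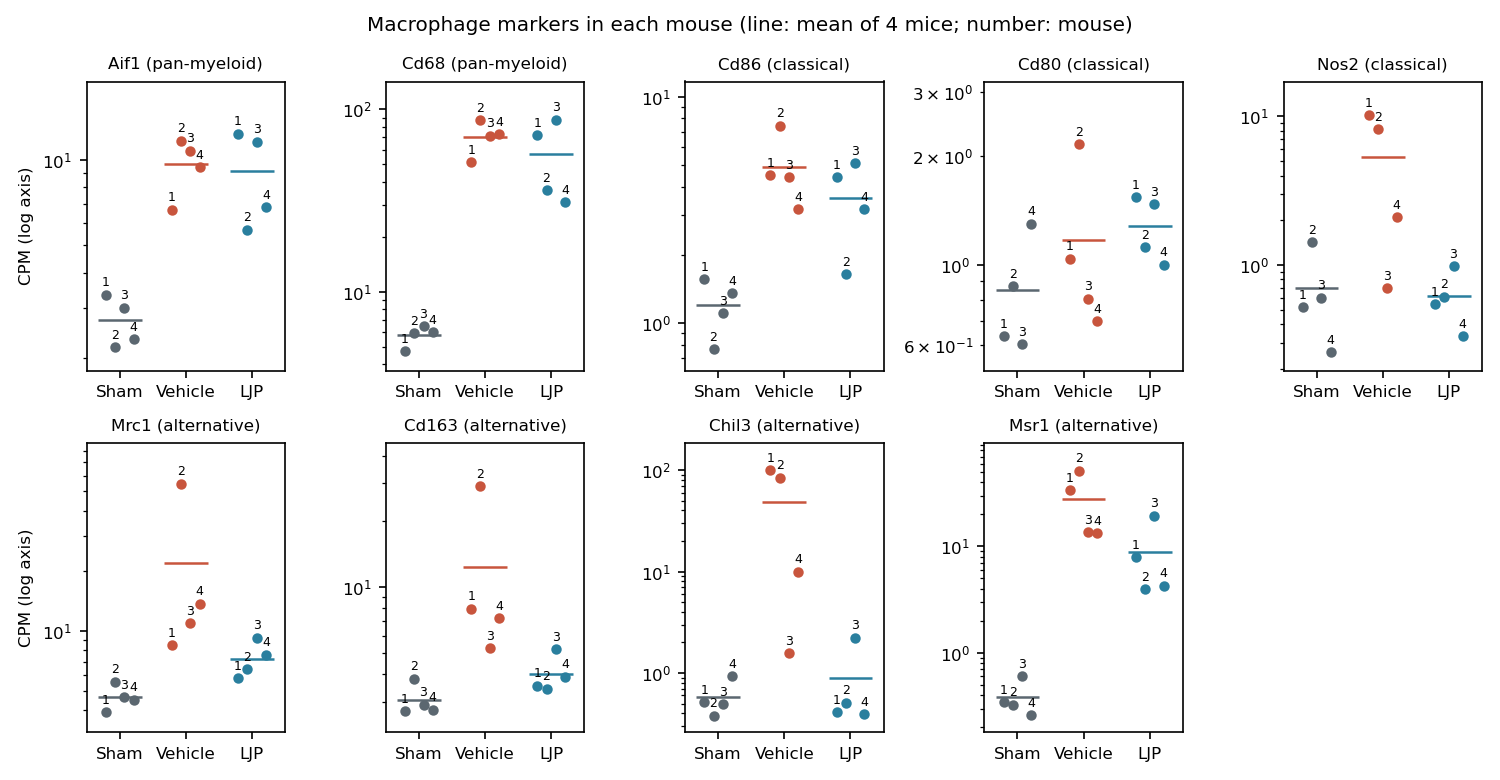
CPM of each marker (log axis, one panel per gene with its role) in the 4 Sham, 4 Vehicle and 4 LJP mice, where each point is a mouse with its number and the line is the mean of 4. Aif1 and Cd68 are high in every Vehicle and LJP mouse, while Nos2 and Chil3 are high mainly in Vehicle mice 1, 2 and 4.

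The comparison of Vehicle with Sham asks what occlusion changes. Of the 9 markers, 8 rose, in classical and alternative groups alike, and Cd80 was not called. Over all genes 39.9% were called in either direction and 22.7% as higher, so a call alone was common in this comparison. Of the members, 7 had every Vehicle mouse above every Sham mouse, which 20.7% of all genes had, and the exceptions were Nos2 and Cd80. Without Vehicle mice 1 and 2, 7 of the 9 were called and Nos2 was not (log2 fold change 0.99, edgeR adjusted p = 0.22), in a fit that called 29.7% of all genes and 15.7% as higher. The comparison of LJP with Vehicle called none of the 9, beside 0.0228% of all genes. That of LJP with Sham called 4, Aif1, Cd68, Cd86 and Msr1, all higher in LJP, beside 4.75% of all genes in either direction and 3.85% as higher.

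Cd68 and Aif1 mark myeloid cells at large. Cd68 (Entrez Gene 12514, chromosome 11 from 69664213 to 69666170 in GRCm38 coordinates) encodes a glycoprotein of lysosomes and endosomes. Its level was 4.73, 5.94, 6.47 and 6.01 CPM in Sham mice 1 to 4, 51.1, 87.1, 71.7 and 73.2 in Vehicle mice 1 to 4, and 71.9, 36.0, 87.5 and 31.0 in LJP mice 1 to 4. Every occluded mouse lay far above every Sham mouse, and the LJP mice lay on both sides of the Vehicle mice. The log2 fold change was 3.61 in Vehicle against Sham (SE 0.32, edgeR adjusted p = 5.24e-05), which is a mean 12.2 times higher. It was 3.29 in LJP against Sham (edgeR adjusted p = 0.000315) and -0.32 in LJP against Vehicle (95% interval -0.93 to 0.29, edgeR adjusted p = 0.45).

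Aif1 (Entrez Gene 11629, chromosome 17 from 35170986 to 35176083) encodes Iba1, an actin-binding protein used to stain microglia. It stood at 3.34, 2.18, 3.01 and 2.33 CPM in Sham mice 1 to 4, at 6.67, 11.7, 10.8 and 9.43 in Vehicle and at 12.4, 5.67, 11.6 and 6.8 in LJP. Again every occluded mouse exceeded every Sham mouse, and the ranges of Vehicle and LJP overlapped almost wholly. Aif1 rose by 1.83 on the log2 scale in Vehicle against Sham (SE 0.28, edgeR adjusted p = 0.000634) and by 1.75 in LJP against Sham (edgeR adjusted p = 0.00367). The difference of LJP from Vehicle was -0.08, with a 95% interval from -0.64 to 0.49. The adjusted p of that difference was 0.855 (edgeR), which does not show that the groups are alike but bounds the difference.

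Measured against Aif1 in the same mouse, Cd68 stood higher after occlusion. The log2 ratio of Cd68 to Aif1 counts was 1.1 ± 0.43 in Sham, 2.88 ± 0.10 in Vehicle and 2.57 ± 0.30 in LJP. All 4 Vehicle ratios lay between 2.73 and 2.95, and all 8 occluded mice exceeded all Sham mice. The difference of 1.78 between Vehicle and Sham had p = 0.0286 in an exact two-sided permutation test, the smallest that 4 against 4 mice allow, and 0.0857 after adjustment over the 9 ratio comparisons, so none of the 9 passed the threshold. The difference of LJP from Vehicle was -0.31 (exact permutation p = 0.0857, adjusted 0.154).

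**Figure D2:**
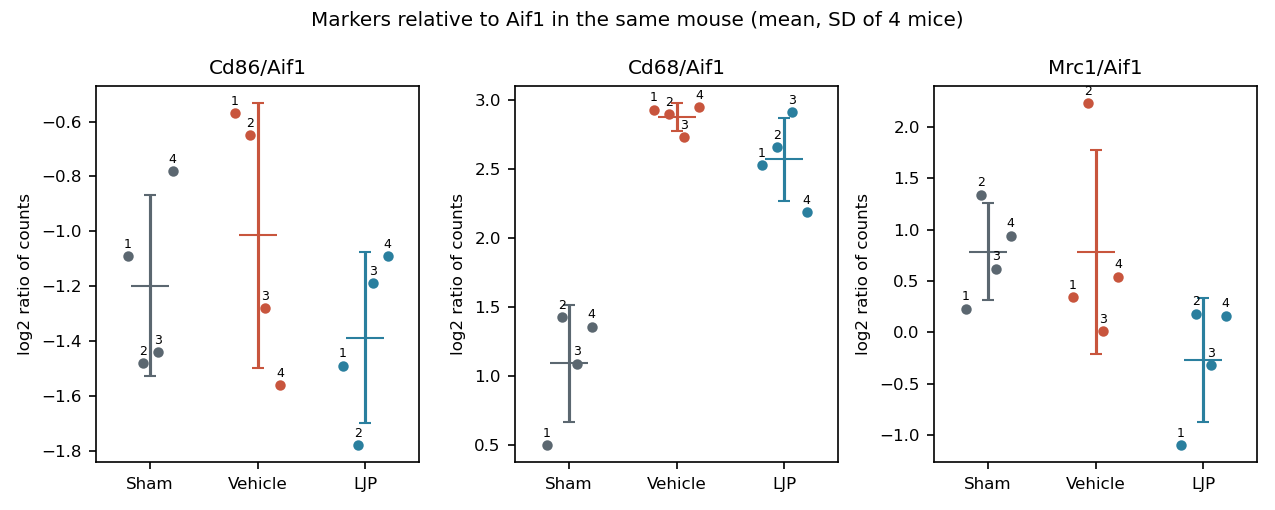
Log2 ratio of Cd86, Cd68 and Mrc1 counts to Aif1 counts in each mouse (points with mouse numbers; cross and bar, mean and SD of 4 mice) in the Sham, Vehicle and LJP groups. Cd68 relative to Aif1 is 2.88 in Vehicle and 2.57 in LJP against 1.1 in Sham, while the Cd86 ratios of the 3 groups overlap.

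The classical markers Cd86, Cd80 and Nos2 did not behave alike. Cd86 (Entrez Gene 12524, chromosome 16 from 36568956 to 36666158) encodes a co-stimulatory ligand that T cells read through CD28. Its CPM was 1.56, 0.763, 1.1 and 1.35 in Sham mice 1 to 4, 4.49, 7.43, 4.41 and 3.18 in Vehicle, and 4.41, 1.64, 5.06 and 3.18 in LJP. All occluded mice were above all Sham mice, LJP mouse 2 by the least, and the ranges of Vehicle and LJP overlapped in part. The log2 fold change was 2.03 in Vehicle against Sham (SE 0.37, edgeR adjusted p = 0.00172). In LJP against Sham it was 1.58 (edgeR adjusted p = 0.0316), a call kept in 6 of 12 fits that each left out a mouse, with adjusted p up to 0.111 without LJP mouse 3.

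For LJP against Vehicle the log2 fold change of Cd86 was -0.45, with a 95% interval from -1.20 to 0.29 and an edgeR adjusted p of 0.381. Relative to Aif1, the log2 ratio of Cd86 was -1.20 ± 0.33 in Sham, -1.02 ± 0.48 in Vehicle and -1.39 ± 0.31 in LJP. Vehicle mice 1 and 2 had the highest Cd86 to Aif1 ratios of all 12 mice at -0.57 and -0.65, and Vehicle mouse 4 had the second lowest at -1.56. The difference of LJP from Vehicle in this ratio, -0.37, had an exact permutation p of 0.257 (adjusted 0.386), and that of Vehicle from Sham, 0.18, had an exact permutation p of 0.543 (adjusted 0.611).

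Cd80 (Entrez Gene 12519, chromosome 16 from 38457430 to 38495958), the companion ligand of Cd86, was the member without a call in any comparison. Its level was low, at 0.634, 0.872, 0.603 and 1.3 CPM in Sham mice 1 to 4, 1.04, 2.15, 0.807 and 0.7 in Vehicle, and 1.54, 1.12, 1.47 and 1.0 in LJP, or 11 to 50 counts per mouse. The 3 groups overlapped throughout, with Vehicle mouse 2 the highest. Its log2 fold change was 0.47 in Vehicle against Sham (95% interval -0.36 to 1.31, edgeR adjusted p = 0.347), so an increase of more than 1.31 on the log2 scale lay outside the interval.

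Nos2 (Entrez Gene 18126, chromosome 11 from 78920787 to 78960226) encodes inducible nitric oxide synthase. It was at 0.519, 1.42, 0.603 and 0.259 CPM in Sham mice 1 to 4, at 10.2, 8.16, 0.7 and 2.1 in Vehicle and at 0.545, 0.614, 0.979 and 0.334 in LJP. Vehicle mice 1 and 2 stood out, Vehicle mouse 4 was above all Sham mice, and Vehicle mouse 3 lay among the Sham and LJP mice. Nos2 rose by 2.92 on the log2 scale in Vehicle against Sham (SE 0.73, edgeR adjusted p = 0.0083, exact permutation p = 0.0571 on log2 of CPM plus 0.5), and by 3.51 without Sham mouse 2. In LJP against Vehicle the fitted value was -3.09 (SE 0.74, 95% interval -4.69 to -1.49, edgeR adjusted p = 0.0678), and in LJP against Sham it was -0.18 (95% interval -1.92 to 1.57).

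Nos2 and Cd86 can also be set side by side within a mouse, as a description with no test. LJP mice 1 and 3 carried Cd86 at 4.41 and 5.06 CPM, within the Vehicle range, and Nos2 at 0.545 and 0.979 CPM, within the Sham range. Vehicle mouse 3 showed the same combination, with Cd86 at 4.41 and Nos2 at 0.7 CPM. LJP mouse 2 did not, since its Cd86 of 1.64 CPM lay below the Vehicle range and just above the highest Sham mouse, with Nos2 at 0.614 CPM, and LJP mouse 4 had Cd86 at 3.18 CPM, the level of the lowest Vehicle mouse, with Nos2 at 0.334 CPM.

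Among the alternative markers, Mrc1 (Entrez Gene 17533, chromosome 2 from 14229414 to 14332023) encodes the mannose receptor CD206, which is typical of border-associated macrophages in the resting brain. It stood at 3.92, 5.56, 4.66 and 4.51 CPM in Sham mice 1 to 4, at 8.44, 54.8, 10.9 and 13.7 in Vehicle and at 5.77, 6.44, 9.25 and 7.58 in LJP. Every occluded mouse exceeded every Sham mouse, and a single mouse, Vehicle 2, held a level several times that of any other. Mrc1 rose in Vehicle against Sham (log2 fold change 2.24, SE 0.51, edgeR adjusted p = 0.00486), and without Vehicle mouse 2 the log2 fold change was 1.23.

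The log2 fold change of Mrc1 in LJP against Vehicle was -1.60 (SE 0.49, edgeR adjusted p = 0.0755), and it was -0.60 without Vehicle mouse 2. It was 0.64 in LJP against Sham (95% interval -0.46 to 1.73, edgeR adjusted p = 0.55), although no LJP mouse overlapped a Sham mouse (exact permutation p = 0.0286). Without Vehicle mice 1 and 2, whose spread enters the fit of all groups, this LJP against Sham value was 0.63 and passed the threshold (edgeR adjusted p = 0.0137), in a fit that called 12.3% of all genes as higher. Relative to Aif1, Mrc1 had log2 ratios of 0.78 ± 0.47 in Sham, 0.78 ± 0.99 in Vehicle and -0.27 ± 0.60 in LJP. The 4 LJP ratios, -1.1 to 0.18, lay below the 4 Sham ratios, 0.23 to 1.34 (exact permutation p = 0.0286, adjusted 0.0857), and they overlapped those of Vehicle (exact permutation p = 0.0857, adjusted 0.154).

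Cd163 (Entrez Gene 93671, chromosome 6 from 124304636 to 124330529) encodes the scavenger receptor for haptoglobin-hemoglobin complexes and is likewise a border macrophage gene. Its CPM was 2.71, 3.81, 2.9 and 2.75 in Sham mice 1 to 4, 7.99, 29.0, 5.27 and 7.22 in Vehicle, and 3.54, 3.43, 5.22 and 3.9 in LJP. Vehicle mouse 2 was again far above the rest, and the highest LJP mouse lay just under the lowest Vehicle mouse. The log2 fold change was 2.02 in Vehicle against Sham (SE 0.46, edgeR adjusted p = 0.00499), and without Vehicle mouse 2 it was 1.16. The LJP against Vehicle value was -1.62 (SE 0.45, edgeR adjusted p = 0.0689), and -0.77 without Vehicle mouse 2. An antisense gene, Gm52877, overlaps Cd163 and held 107 to 158 counts in Sham, 77, 249, 85 and 70 in Vehicle mice 1 to 4 and 61 to 110 in LJP. Its highest count was in Vehicle mouse 2, the mouse with the most Cd163, and since the strand setting of the counting is not given, reads of the pair may not be told apart and the values of Cd163 are uncertain.

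Chil3 (Entrez Gene 12655, chromosome 3 from 106147554 to 106167564) encodes Ym1, a chitinase-like protein without enzyme activity that is secreted by alternatively activated macrophages and also made by neutrophils. Sham mice 1 to 4 had 0.519, 0.381, 0.493 and 0.933 CPM, Vehicle mice 100, 84.3, 1.56 and 10, and LJP mice 0.409, 0.511, 2.23 and 0.39. Vehicle mice 1 and 2 were high, mouse 4 lay between and mouse 3 was low, and LJP mouse 3 was the highest of its group. Chil3 rose by 6.38 on the log2 scale in Vehicle against Sham (SE 1.16, edgeR adjusted p = 0.00163). The rise was 5.76 on that scale without Vehicle mouse 1 and 3.29 without Vehicle mice 1 and 2 (edgeR adjusted p = 0.0021). Of the windows of 100 bases in its longest transcript, 5.42% are also found in Chil4, a near copy, and none of the other 8 members shared such a window with another gene. Chil4 itself held at most 2 counts in any mouse.

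For LJP against Vehicle, Chil3 had a log2 fold change of -5.81 (SE 1.1, 95% interval -8.20 to -3.42, edgeR adjusted p = 0.0678). It was -5.19 without Vehicle mouse 1 and -6.79 without LJP mouse 3. The groups did not separate fully, since LJP mouse 3 exceeded Vehicle mouse 3 (exact permutation p = 0.0571). In LJP against Sham the log2 fold change was 0.57 (95% interval -2.44 to 3.58), an interval too wide to bound a difference closely.

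Msr1 (Entrez Gene 20288, chromosome 8 from 39543232 to 39642750) encodes a scavenger receptor for modified lipoproteins. It was the only alternative marker also called in LJP against Sham. Its CPM was 0.346, 0.327, 0.603 and 0.259 in Sham mice 1 to 4, 34.0, 51.4, 13.7 and 13.4 in Vehicle, and 7.95, 3.99, 19.4 and 4.29 in LJP. All occluded mice were far above Sham, and LJP mouse 3 lay between the Vehicle mice. Msr1 rose by 6.18 on the log2 scale in Vehicle against Sham (SE 0.73, edgeR adjusted p = 0.000151) and by 4.52 in LJP against Sham (SE 0.73, edgeR adjusted p = 0.00382). Against Vehicle, LJP mice were at -1.66 (95% interval -2.80 to -0.53, edgeR adjusted p = 0.0792). Without LJP mouse 3 the values were 3.8 against Sham and -2.37 against Vehicle, and without Vehicle mice 1 and 2 the rise in Vehicle against Sham was 5.12.

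**Figure D3:**
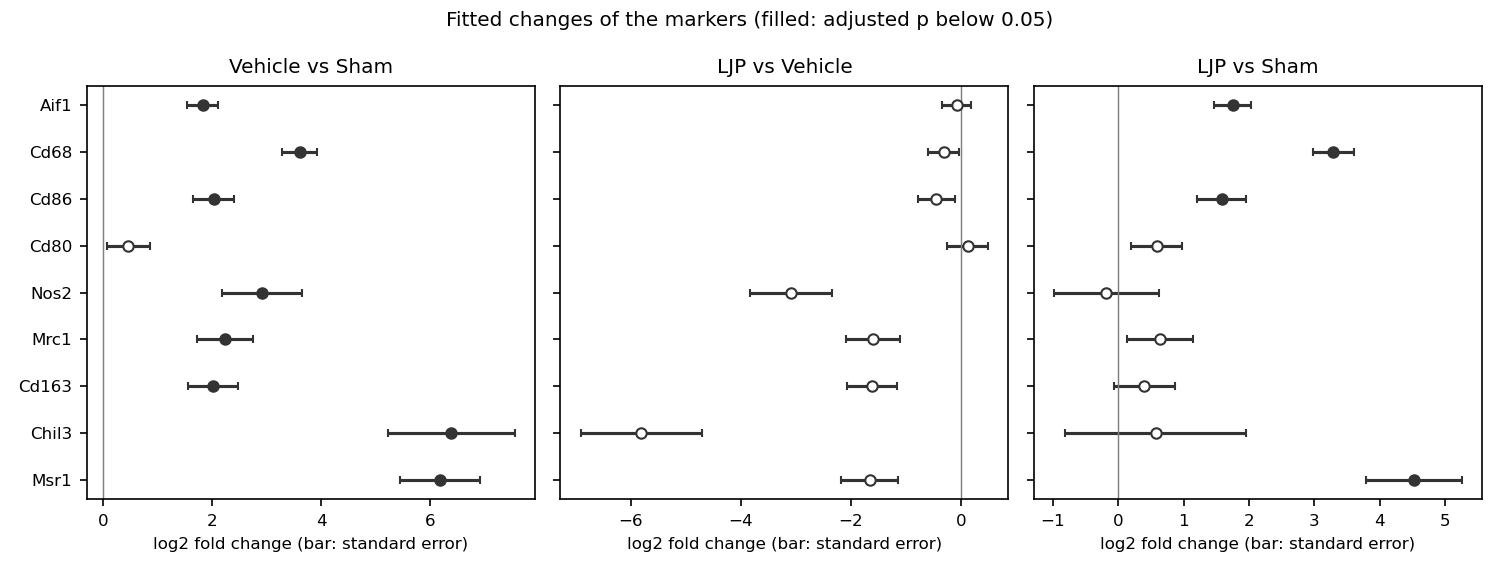
Fitted log2 fold change of each marker with its standard error (bars) in the 3 comparisons, filled where the edgeR adjusted p is below 0.05. In Vehicle against Sham 8 of 9 are filled, in LJP against Vehicle none, and in LJP against Sham Aif1, Cd68, Cd86 and Msr1.

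The comparison of LJP with Vehicle asks what the polysaccharide changes after occlusion. None of the 9 markers passed the adjusted threshold, while 0.0228% of all genes did. These were 4 genes, and 3 of them are on the list of airway and alveolar genes. At an unadjusted edgeR p below 0.05, 5 members, Nos2, Mrc1, Cd163, Chil3 and Msr1, were at lower values in LJP, beside 29.7% of all genes in either direction. The same 5 met the thresholds of the study's methods (unadjusted p below 0.01 with a change beyond 0.58 on the log2 scale), which 5.89% of all genes met as lower. DESeq2, the tool of the study's methods, called 4 of them at an adjusted p below 0.05, all but Msr1 (adjusted p = 0.055), where it called 9.36% of genes as lower. The edgeR fit without the filter on low counts called Chil3 and Nos2, and 1.8% of genes as lower.

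These calls depended on which Vehicle mice were in the fit. Leaving out Vehicle mouse 3 or Vehicle mouse 4 brought the same 5 members past the threshold, with edgeR adjusted p from 0.00679 to 0.0283 without mouse 3 and from 0.031 to 0.0467 without mouse 4. Calls grew over the whole table in these fits, where 13.1% of all genes were called as lower without mouse 3 and 8.38% without mouse 4. Leaving out Vehicle mice 1 and 2 together gave none of the members and 0.0443% of all genes as lower. The log2 fold changes were then -2.72 for Chil3, -1.18 for Nos2, -0.76 for Mrc1, -0.64 for Cd163 and -0.61 for Msr1. Their unadjusted edgeR p-values, in that order, were 0.000843, 0.0599, 0.00111, 0.0113 and 0.189. Cd163 was the only member with every LJP mouse below every Vehicle mouse, which 5.91% of all genes had. The intervals of Aif1, Cd68, Cd86 and Cd80, the 4 members outside this group, all included 0.

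In LJP against Sham, 4 members were higher, beside 4.75% of all genes called in either direction and 3.85% called higher. These were both pan-myeloid genes, Cd86 and Msr1. With Mrc1 added, 5 members had every LJP mouse above every Sham mouse, which 12.9% of all genes had. Chil3, Nos2, Cd163 and Cd80 overlapped between LJP and Sham. The comparisons with Sham share the Sham mice and those with Vehicle share the Vehicle mice, so their values are not independent of each other.

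**Figure D4:**
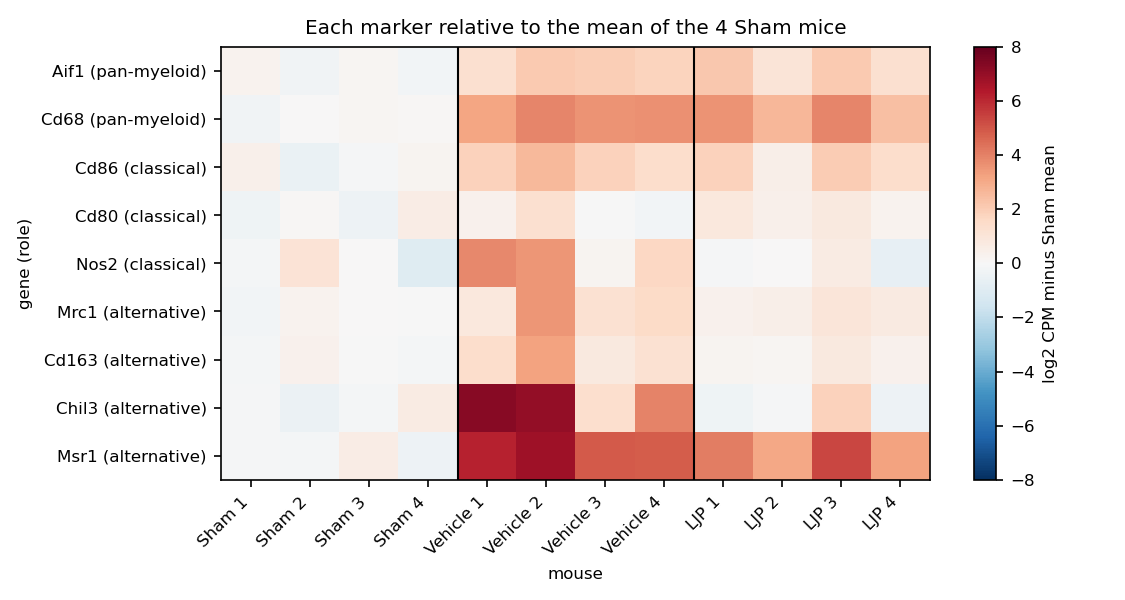
Log2 CPM of each marker minus the mean of the 4 Sham mice (colour scale), with genes and roles in rows and the 12 mice in columns. Chil3 is strongest in Vehicle mice 1 and 2, Msr1 and Cd68 are raised in all 8 occluded mice, and Cd80 changes little.

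Per base of transcript, the markers also changed their order. By group mean, Cd68 was the highest member in all 3 groups, at 4.64 ± 0.596 CPM per kb in Sham, 56.8 ± 11.9 in Vehicle and 45.4 ± 22.0 in LJP. In Vehicle mouse 1, Chil3 at 65.0 CPM per kb exceeded Cd68 at 41.0. Aif1 came second in Sham at 2.62 ± 0.534 CPM per kb, followed by Mrc1 at 0.877 ± 0.127 and Cd163 at 0.675 ± 0.115, and the ranges of these 4 did not overlap except for those of Mrc1 and Cd163. In Vehicle Cd68 was followed by Chil3 at 31.8 ± 32.8 CPM per kb, ahead of Aif1 at 9.29 ± 2.11. Chil3 did not differ from Cd68 or from Aif1 beyond its spread. In LJP, Aif1 was second again at 8.79 ± 3.25 CPM per kb, and Mrc1 (1.36 ± 0.286), Msr1 (1.04 ± 0.845), Cd86 (1.03 ± 0.437) and Cd163 (0.892 ± 0.183) followed. Mrc1 exceeded Cd163 in each LJP mouse and by more than either SD, although their ranges overlapped. Msr1 and Cd86 did not differ from each other or from Mrc1 and Cd163 beyond their spread, while Aif1 lay above all of these in every LJP mouse and Cd68 above Aif1.

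Across the 12 mice, with each group's mean removed, the markers varied together to unequal degrees. Mrc1 and Cd163 had a Pearson r of 0.93 (Spearman 0.94), and 0.93 again over 10 mice without Vehicle mice 1 and 2. Nos2 and Chil3 had r = 0.82 (Spearman 0.67), and 0.41 over those 10 mice. Chil3 and Msr1 had r = 0.73 (Spearman 0.7), and 0.49 over the 10. Aif1 went with Cd68 (r = 0.78) and Cd86 (r = 0.74), and its r was -0.13 with Nos2 and -0.07 with Chil3. Pairs across these groups were also correlated, with r = 0.74 for Cd80 and Cd163 (0.08 over the 10), 0.69 for Cd86 and Msr1 (0.6 over the 10) and 0.65 for Nos2 and Cd163 (0.8 over the 10). No grouping of the markers was tested. These are descriptions over mice that share library, depth and overall state, and 17 of the 36 pairs had r above 0.5.

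By the same measure, the genes outside the set that varied most like each marker were named. For Cd68 they were Gltp (r = 0.98), the complement gene C1qc (0.98) and the cathepsin gene Ctsz (0.97), and for Aif1 they were Cst7, Cd300c2 and Sema3d (0.93 each). For Mrc1 they were D16Ertd472e (0.98), Tbx15 (0.98) and the collagen gene Col1a2 (0.97), and for Cd163 they were Tgfbr3, Ccm2l and Btbd7 (0.98 each). Nos2 was closest to Adm (0.97), Lats1 (0.95) and Vcan (0.94), and Chil3 to Ezr (0.98), Col2a1 (0.97) and Mrpl2 (0.97). Msr1 was closest to Lrrc25 (0.97), Tlr13 (0.96) and Nfatc1 (0.95), Cd86 to Stx4a (0.93), Mthfd2 (0.93) and 3110039M20Rik (0.92), and Cd80 to Ccl28 (0.95), Tfeb (0.95) and Snrpd2 (0.94).

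Genes that mark other cells moved with some of these values. Summed over 7 genes of meningeal fibroblasts, the level was 132 to 164 CPM in Sham, 117 to 170 in LJP, and 177, 1450, 219 and 314 in Vehicle mice 1 to 4. The mouse with by far the most Mrc1 and Cd163 thus had by far the highest sum. Igf2, a growth factor gene on this list, did not share that peak. It was at 68.1 to 93.6 CPM in Sham, 26.5, 58.6, 79.3 and 64.5 in Vehicle mice 1 to 4 and 46.0 to 59.2 in LJP. The other 6 genes summed to 64.2 to 70.6 CPM in Sham, 151, 1390, 140 and 250 in Vehicle mice 1 to 4 and 62.4 to 111 in LJP. The 5 endothelial genes summed to 489, 1010, 225 and 262 CPM in Vehicle mice 1 to 4, against 155 to 171 in Sham and 153 to 203 in LJP. The 6 neuronal genes summed to 3380 CPM in Vehicle mouse 2, below the 4600 to 5340 of the other Vehicle mice and the 5390 to 6030 of Sham. The part of these in the marker values was not tested.

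The 9 neutrophil genes summed to 214, 78.8, 18.2 and 30.1 CPM in Vehicle mice 1 to 4, against 5.31 to 6.74 in Sham and 10.1 to 22.3 in LJP, and Vehicle mice 1 and 2 were also highest in Chil3 and Nos2. Outside those mice Csf3r, the receptor for granulocyte colony-stimulating factor, held most of the sum. The other 8 genes summed to 165, 40.5, 0.754 and 5.55 CPM in Vehicle mice 1 to 4, 0.272 to 0.519 in Sham and 0.307 to 1.11 in LJP. Among them, S100a8, a calcium-binding protein abundant in neutrophils, had 1159, 278, 4 and 33 counts in Vehicle mice 1 to 4 and 0 to 4 in each mouse of the other groups, while Ly6g, the defining surface marker, had at most 4 counts in any mouse. The 7 monocyte genes summed to 511, 1150, 252 and 281 CPM in Vehicle mice 1 to 4, against 99.9 to 101 in Sham and 140 to 277 in LJP. Most of this sum was Fn1, which is also on the list of alternative activation genes, and the other 6 summed to 54.6, 52.2, 22.4 and 27 CPM in Vehicle mice 1 to 4, 14.1 to 16.5 in Sham and 20 to 26.7 in LJP. Most of what these 6 held was Vcan, with 837, 909, 379 and 451 counts in Vehicle mice 1 to 4, 265 to 295 in Sham and 355 to 508 in LJP. Also among the 6, Ccr2, the receptor that draws monocytes into tissue, had 55, 117, 23 and 20 counts in Vehicle mice 1 to 4, 2 to 6 in Sham and 0 to 42 in LJP. The part of neutrophils and monocytes in the marker values was not tested. Summed homeostatic microglia genes were 170 to 175 CPM in Sham, 193, 389, 492 and 519 in Vehicle mice 1 to 4 and 285 to 560 in LJP. The genes of this list did not all move alike. In Vehicle mouse 1, P2ry12, Siglech and Gpr34 had 198, 43 and 64 counts, against 294 to 384, 173 to 196 and 101 to 129 in Sham. Fitted in Vehicle against Sham, 8 of the 9 had values above 0 and 1 below. Vehicle mouse 1, with the least Aif1 and Cd68 of its group, also had the lowest microglial sum of the group.

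**Figure D5:**
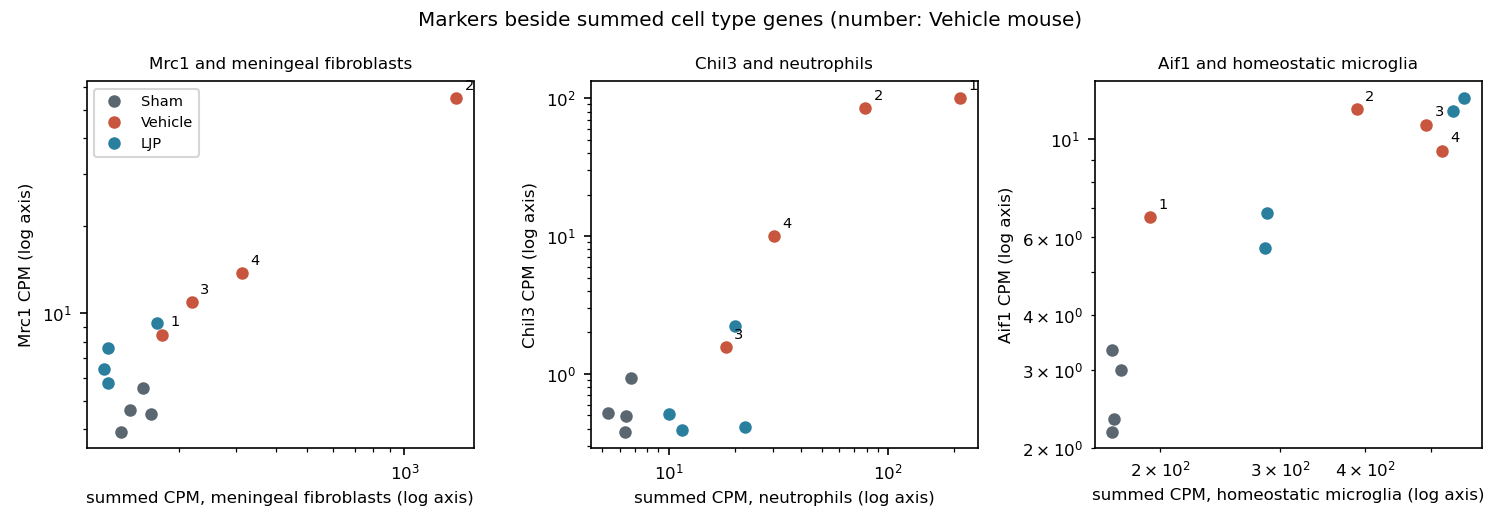
CPM of Mrc1, Chil3 and Aif1 against the summed CPM of meningeal fibroblast, neutrophil and homeostatic microglia genes in each mouse (both axes log, colours for Sham, Vehicle and LJP, numbers for Vehicle mice). Vehicle mouse 2 holds both the most Mrc1 and the highest sum of fibroblast genes (1450 CPM), and Vehicle mice 1 and 2 both the most Chil3 and the highest sums of neutrophil genes.

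Sums for 9 airway and alveolar genes were 9.48 to 13.7 CPM in Sham, 10.9 to 14 in Vehicle and 0.358 to 0.669 in LJP, a difference that follows the LJP label. The 5 choroid plexus genes divided the mice of each group, at 31.8, 697, 439 and 903 CPM in Sham mice 1 to 4, 21.6, 19.6, 529 and 485 in Vehicle and 25.9, 26.7, 386 and 21.8 in LJP. The low Vehicle mice, 1 and 2, were those with the most Chil3 and Nos2, while the high LJP mouse, 3, had the most Chil3 of its group. Astrocyte genes summed to 862 to 901 CPM in Sham, 2210 to 3660 in Vehicle and 1840 to 3020 in LJP. Nearly all of that rise was Gfap, a filament protein of reactive astrocytes, and the other 4 genes summed to 711 to 754 CPM in Sham, 757 to 907 in Vehicle and 789 to 909 in LJP. Oligodendrocyte genes summed to 4110 to 5000, 5050 to 5730 and 4090 to 5000 CPM in Sham, Vehicle and LJP. The part of these cells in the marker values was not tested.

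Other genes of both states and of the signals that induce them were described as lists, whose calls stand beside 22.7% of all genes called higher in Vehicle against Sham and 3.85% in LJP against Sham by edgeR, and 9.36% called lower in LJP against Vehicle by DESeq2. Of 27 classical activation genes, 18 were tested, 16 rose in Vehicle against Sham and none fell, with a median log2 fold change of 2.05 beside 0.00 over all genes. They include Tlr2, a receptor for bacterial lipoproteins (log2 fold change 4.16, edgeR adjusted p = 1.54e-05), Irf5, a transcription factor of the classical state (2.04, adjusted p = 0.000151), and Fcgr1, a high-affinity antibody receptor (2.74, adjusted p = 0.000241). In LJP against Vehicle edgeR called none of the 18 and 15 had values below 0, with a median of -0.88, while DESeq2 called 8 of the 27 as lower. The smallest p-values there were those of Socs3, a feedback inhibitor of cytokine signaling (-2.62, edgeR adjusted p = 0.0678), and Cd40, a co-stimulatory receptor (-2.63, edgeR adjusted p = 0.0678). Against Sham, 5 of the 18 rose in LJP.

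Of 27 further alternative activation genes, 18 were tested, 12 rose in Vehicle against Sham, beside 22.7% of all genes, and Egr2 fell, with a median of 2.39. Stab1, a scavenger receptor, rose by 3.12 on the log2 scale (edgeR adjusted p = 0.000122), Tgfb1, which encodes transforming growth factor beta, by 2.75 (adjusted p = 0.000277), and Trem2, a lipid-sensing receptor of phagocytes, by 2.08 (adjusted p = 0.00062). In LJP against Vehicle edgeR called none of the 18, of which 13 had values below 0 with a median of -0.68, and DESeq2 called 7 of the 27 as lower, beside 9.36% of all genes. The smallest p-values were those of Fn1, which encodes fibronectin, at -1.70 and of Tgfb1 at -1.34 (edgeR adjusted p = 0.0678 each). Against Sham, 5 rose in LJP, beside 3.85% of all genes. Stab1, Lyve1 and Folr2 of this list are border macrophage genes as well, and of the 9 border macrophage genes 8 were tested and all 8 rose in Vehicle against Sham (summed level 216 to 474 CPM against 29.4 to 33 in Sham and 86.0 to 254 in LJP), with 2 called as higher in LJP against Sham. All 8 had values below 0 in LJP against Vehicle, with a median of -1.07, and edgeR called none of them while DESeq2 called 4 as lower.

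Of 17 inducing cytokines and receptors, 11 were tested, 9 rose in Vehicle against Sham, and Il34, a ligand of the receptor encoded by Csf1r, fell by 0.38 on the log2 scale. Csf1, the other ligand of that receptor, rose by 1.84 (edgeR adjusted p = 0.00014), Csf2rb by 4.38 (adjusted p = 0.000209) and Csf1r by 1.26 (adjusted p = 0.0006). The cytokines that name both states were near the limit of detection, with at most 3 counts of Ifng, 7 of Il4 and 5 of Il13 in any mouse, which does not show that they were absent. Among their receptors, Il13ra2 had 0 to 18 counts in any mouse, while Il4ra had 107 to 132 counts in Sham, 3151, 5683, 517 and 812 in Vehicle mice 1 to 4 and 223 to 652 in LJP. In LJP against Vehicle Il4ra was at -2.51 and Il13ra1, its partner in the receptor for interleukin 13, at -1.59 (edgeR adjusted p = 0.0678 each). None of the 11 was called there by edgeR, and DESeq2 called 5 of the 17 as lower. Against Sham, 4 of the 11 rose in LJP.

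Homeostatic microglia genes mark resident cells at rest. Of 9 tested, 5 rose in Vehicle against Sham, beside 22.7% of all genes, and 5 in LJP against Sham, beside 3.85%. None was called in LJP against Vehicle by edgeR or DESeq2, and their median log2 fold change in LJP against Vehicle was 0.05. Olfml3 rose by 1.88 on the log2 scale in Vehicle against Sham (edgeR adjusted p = 0.00155) and Fcrls, a receptor gene of microglia, by 2.49 (adjusted p = 0.00259). In LJP against Vehicle the 2 smallest p-values of this list were those of Siglech (0.52, edgeR adjusted p = 0.367) and Gpr34 (0.42, adjusted p = 0.488).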

How the data were processed

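RNA sequencing was performed by the authors on poly(A) RNA from the brains of 12 mice, of which Sham, Vehicle and LJP held 4 each. Raw counts per gene and mouse, without normalization, were deposited by the authors for 39756 genes. The submitters' processing notes name featureCounts and DESeq2 and the builds GRCm39 and mm10. The gene positions in the table match GRCm38. The aligner, the strand setting and the handling of reads shared between genes are not given in the sources used here, which bears on Cd163 and Chil3. Groups and replicate numbers came from the labels.

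The model was fitted with edgeR 4.0.16 in R 4.3.3 (filterByExpr, TMM, quasi-likelihood test, 1 coefficient per group over all 12 mice), with Benjamini-Hochberg adjustment over the 17558 genes tested. The fit was checked on simulated counts. CPM values, ratios to Aif1 (log2, 0.5 counts added) and exact permutation tests were computed in Python 3.11.15 with scipy 1.17.1, and plots with matplotlib 3.10.9. Correlations used log2 CPM with a prior count of 2 and each group's mean removed. Pairs of mice within a group differed by more than sampling noise (lowest chi-square per degree of freedom 2.56). The floor of 3 counts covers counting error only.

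The alternatives were DESeq2 1.42.0, RLE normalization, library size only, no filter, a fit on the compared groups alone, a block for the replicate number, the thresholds of the study's methods, a pseudocount of 5 for ratios, and leaving out each mouse. Leaving out Vehicle mice 1 and 2 together was added after seeing the data. The members and gene lists were chosen with earlier results of these data known. The rule found 10 members, of which 9 are described, and 1 member and 1 list gene are not reported here. The text names these 9, up to 3 genes per list with the smallest p-values in Vehicle against Sham and 2 in LJP against Vehicle, and the 3 genes most like each member among those with a mean of at least 1 CPM. Il4ra, Il13ra2, Csf3r, Gfap, Igf2, S100a8, Ly6g, Ccr2, Ifng, Il4, Il13, Il34, Egr2, Lyve1, Folr2 and P2ry12 were named after their values were seen.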

Additional observations from a re-analysis of the deposited data

Results flagged for a closer look

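Of 36 groups of 4 mice checked (9 markers and 3 ratios in 3 groups), 3 held a mouse whose gap to the nearest other, as a share of the group's range, exceeded Dixon's 95% critical value, where chance gives about 1 in 20 groups, or 1.8 here. Vehicle mouse 2 was the highest of its group in Mrc1, with a gap of 0.887 of the range, and in Cd163, with 0.885. It was the mouse with 1450 CPM of summed meningeal fibroblast genes, whose part in these values was not tested. LJP mouse 3 was the highest of its group in Chil3 (0.934), with 2.23 CPM against 0.39 to 0.511.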

How the results depend on the processing

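Occlusion gave 8 called members under every alternative planned, and 7 without Vehicle mice 1 and 2 (Nos2 was lost). For LJP against Vehicle, 0 members were called, and 4 with DESeq2, 2 without the filter on low counts and 5 at the thresholds of the study's methods. Leaving out single mice gave 0 to 5, with 5 without Vehicle mouse 3 and 5 without Vehicle mouse 4. For LJP against Sham, 4 were called and 3 to 5 under the alternatives. The causes were not tested.

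Directions reversed for these values, none of them called. Cd80 in Vehicle against Sham (0.47) ranged from -0.01 to 0.75 on leaving out single mice, and was -0.19 without Vehicle mice 1 and 2. In LJP against Vehicle, Aif1 (-0.08) ranged from -0.26 to 0.09 and Cd80 (0.12) from -0.06 to 0.59. In LJP against Sham, Nos2 (-0.18) ranged from -0.47 to 0.42 and Chil3 (0.57) from -0.42 to 0.90. The Mrc1 to Aif1 ratio in Vehicle against Sham was 0.00, 0.04 with a pseudocount of 5, and from -0.49 to 0.25 on leaving out single mice.

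Mice with the same replicate number did not deviate together (correlations from -0.322 to 0.114), so the numbers do not pair them. The fit with the replicate number as a block called 8, 0 and 3 members in Vehicle against Sham, LJP against Vehicle and LJP against Sham, the last without Cd86. Of 17558 genes, that fit called 3451 as higher in Vehicle against Sham, 2 as lower in LJP against Vehicle and 405 as higher in LJP against Sham. Counts were low for Cd80, for Nos2 and Chil3 in Sham and LJP, and for Msr1 in Sham.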
